A study of Mus musculus with 24 samples.

Results

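The 43 genes described here are transcripts of dividing cells. They were taken as a list of symbols, and all 43 were present among the 54235 features of the count matrices. Of these, 16 act around DNA replication and are called replication members below, and 27 act in the division that follows and are called mitosis members. All 43 matched a protein-coding gene of the mouse GENCODE M21 annotation (GRCm38). The data asked which cell classes of the motor cortex and the dorsal striatum held these transcripts, in what share of their cells, and how levels varied by region, training stage and hemisphere.

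A cell that enters division first copies its genome. The MCM proteins form the helicase that opens the DNA, PCNA clamps the polymerase to it, and ribonucleotide reductase and thymidylate synthase supply the nucleotides. Cyclin-dependent kinase 1 with its B-type cyclins then drives mitosis, in which the chromosomes are condensed, aligned and pulled apart and the cyclins are destroyed. Most cells of the adult brain have left this cycle. The known exceptions include the progenitors and young neuroblasts of the subventricular zone, which lies along the edge of the striatum, and the oligodendrocyte precursors that are spread through grey and white matter.

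All mice carried the Ai9 reporter and a recombinase driven by activity, and all received 4-hydroxytamoxifen (4-OHT). Motor cortex (primary motor cortex) came from Fos-CreER::Ai9 mice and dorsal striatum from Arc-CreER::Ai9 mice, so that region and driver line cannot be told apart. In each region the groups were control mice that were given 4-OHT without training, mice labelled after 2 days of training (early) and mice labelled after 8 days (late), each collected 3 days after 4-OHT. Tissue from 2 mice, marked M and F, was pooled and kept apart by hemisphere, which gave 12 pools, 2 for each region and stage, and the pool was the unit of replication. Each pool was also 1 pair of animals, so the groups differ by which mice they hold. The age of the mice was not used here.

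The 23 matrices analysed held 127901 barcodes, 541 to 10030 per library, with 5260446 to 30470621 UMIs (unique molecular identifiers, 1 per captured transcript). After filters 98612 cells were kept, 50627 from striatum and 47985 from motor cortex, with medians of 1970 to 5520 UMIs per cell and library. Barcodes shared between libraries put 4 pools (pool 1 of control and of late in each region) in one barcode class, A, and the other 8 in another, B. The 28 library pairs within class A shared 2226 barcodes, the 120 within class B 715 and the 128 between classes 112. Both early groups were of class B alone. The right hemisphere of striatal control pool 1 entered this comparison of barcodes, with 10654 of them, and its counts were not analysed here. The labels also name 6 batches: each region's control pool 1 and late pool 1 shared 1 batch, its control pool 2 and early pool 1 shared another, both regions' early pool 2 shared the fifth and both regions' late pool 2 the sixth. Barcode class A is exactly the batches of control pool 1 and late pool 1, so that the class cannot be told apart from them. Within a region, no residual degree of freedom is left with stage and batch together as terms. No fit between regions was made with batch as a term, so all within-batch values are given as descriptions. Cell classes were named from marker genes after clustering without the cell cycle genes, and each name below stands for cells like that type. Within several classes the clusters divided along the barcode classes. Among striatal oligodendrocyte precursors, cluster 17 held 94.1% and 99.0% of the cells of the class A pools, while cluster 10 held most of the class B pools. Late pool 1 of the striatum stood apart in its glia: its oligodendrocyte precursors carried 11913 CPM (counts of UMIs scaled to a fixed total over the summed cells; reads come from the 3′ end, so a level is not scaled by length) of the 10 precursor markers against 16404 to 17460 in the other 5 striatal pools, and 1939 CPM of the 9 spiny projection neuron markers against 455 to 650.

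Upstream sequences show what the members share outside the counts. In the RefSeq promoter table for GRCm38.p6, 35 of the 43 members had an entry among 32851 promoters, and the 250 bases before each start were searched on both strands. The CCAAT box (CCAAT), bound by NF-Y, was in 30 of the 35 members, 85.7%, against 33.8% of all promoters. The cell cycle homology region, written here as TTTGAA or TTCGAA and known from genes repressed in resting cells, was in 8 of 22 mitosis members (36.4%), in 2 of 13 replication members (15.4%) and in 17.1% of all promoters. An E2F site, written as TTT, then 2 bases that are each G or C, then CGC, was in 3 of 13 replication members (23.1%), in 1 of 22 mitosis members (4.55%) and in 1.86% of all promoters. The motifs may overlap one another, and a match is a description of the letters.

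Of the 6 promoters shown, the first 3 belong to replication members and the last 3 to mitosis members, and they were chosen to show each of the motifs, not as typical of their group: Rrm1 holds no E2F match and Cdk1 holds one. Capitals mark every match to any of the motifs on either strand, and each sequence reads 5′ to 3′ on the gene's strand, ending at the base before the RefSeq start. Cdk1 and Cdc20 stop 26 and 9 bases earlier, before the gene start of GENCODE M21. They lie at chr8:75109349-75109508 (Mcm5, plus strand), chr1:128359706-128359865 (Mcm6, minus), chr7:102441535-102441694 (Rrm1, plus), chr11:99024190-99024349 (Top2a, minus), chr10:69352939-69353072 (Cdk1, minus) and chr4:118437353-118437503 (Cdc20, minus).
Mcm5: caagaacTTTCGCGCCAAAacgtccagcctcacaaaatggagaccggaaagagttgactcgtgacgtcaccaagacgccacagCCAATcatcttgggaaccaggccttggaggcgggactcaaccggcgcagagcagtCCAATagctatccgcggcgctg
Mcm6: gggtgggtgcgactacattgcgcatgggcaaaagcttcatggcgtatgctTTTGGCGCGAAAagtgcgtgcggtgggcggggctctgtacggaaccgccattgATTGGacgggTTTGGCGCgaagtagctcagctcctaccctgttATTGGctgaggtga
Rrm1: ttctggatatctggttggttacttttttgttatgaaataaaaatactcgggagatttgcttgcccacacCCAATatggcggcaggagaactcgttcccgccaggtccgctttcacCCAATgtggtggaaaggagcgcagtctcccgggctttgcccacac
Top2a: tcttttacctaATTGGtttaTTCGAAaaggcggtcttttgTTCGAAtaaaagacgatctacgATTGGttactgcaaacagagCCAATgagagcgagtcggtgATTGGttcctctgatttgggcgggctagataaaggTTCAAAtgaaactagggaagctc
Cdk1: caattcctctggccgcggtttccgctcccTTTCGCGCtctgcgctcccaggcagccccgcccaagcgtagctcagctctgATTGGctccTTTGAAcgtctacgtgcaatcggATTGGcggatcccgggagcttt
Cdc20: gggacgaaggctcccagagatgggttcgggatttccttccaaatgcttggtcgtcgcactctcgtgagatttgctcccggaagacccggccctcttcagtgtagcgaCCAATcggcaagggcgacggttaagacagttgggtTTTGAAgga
Mcm5 and Mcm6 each hold E2F matches that overlap on opposite strands. The Mcm5, Mcm6 and Rrm1 windows hold no cell cycle homology region, whereas Top2a, Cdk1 and Cdc20 all do. The CCAAT box is in all 6.

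Cells were scored by their summed member UMIs, and a cell with 3 or more was counted. Because deep cells reach 3 UMIs more easily, the share expected after thinning each cell to 1000 UMIs was computed as well and leads below. In the striatum, progenitors held most of the counted cells: 77.2% of the expected thinned count, although they were 3873 of 50627 striatal cells. Neuroblasts held 16.002%, oligodendrocyte precursors 3.81% and all neurons together 1.02%. In motor cortex no progenitor cluster was found, and oligodendrocyte precursors held 72.3%, neurons 5.86%, endothelial cells 4.88% and pericytes 3.90%. Striatal progenitors stood above every other class of the striatum in all 6 pools, and neuroblasts above oligodendrocyte precursors in all 6. In motor cortex the highest class changed with the pool: small classes of T or NK cells and of neuroblasts ran from 0% to 26.5% and from 0% to 24.8%, and oligodendrocyte precursors from 3.36% to 6.73%.

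**Figure D1:**
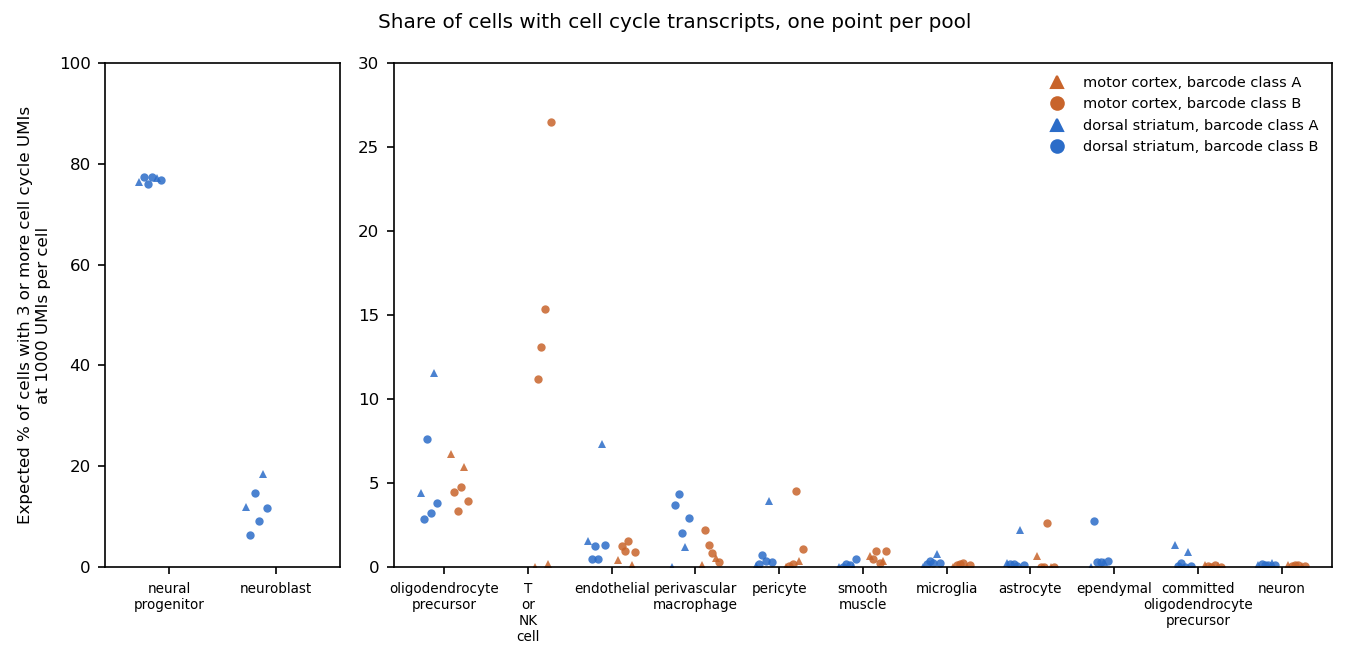
Expected percent of cells with 3 or more cell cycle UMIs after thinning to 1000 UMIs (vertical axis), by cell class (horizontal axis) and region (colour), with progenitors and neuroblasts in the left panel and the other classes on a larger scale in the right; 1 point per pool, with symbols for barcode class. Striatal progenitors sit between 76.0% and 77.4%, and in motor cortex the oligodendrocyte precursors sit between 3.36% and 6.73%.

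Neurons, which do not divide, gave the background. At full depth 11.1% of 24017 striatal and 19.4% of 20977 cortical neurons had 3 or more member UMIs, with medians of 4471 and 7266 UMIs per cell. At 1000 UMIs these shares were 0.156% ± 0.038 (SD, n = 6 pools) and 0.109% ± 0.026 (SD, n = 6). The neuronal UMIs came from a few members: Dut, which removes dUTP from the nucleotide pool, Gmnn, the inhibitor of origin licensing, and Pcna made up 62.9% of member UMIs in striatal neurons and 61.2% in cortical ones. Dut stood at 81.7 CPM in striatal neurons and at 67.6 CPM in cortical ones. Gmnn stood at 21.4 to 31.2 CPM in the 6 striatal pools and at 6.8 to 9.7 CPM in the 6 cortical pools, without overlap. No neuronal region fit was made, so this difference was not tested. Top2a, the topoisomerase that untangles chromosomes, was at 1.59 CPM in striatal neurons and 0.20 CPM in cortical ones. A thinned share in another class at or below the neuronal one is read as background.

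In striatal progenitors 86.7% of 3873 cells had 3 or more member UMIs, and the thinned share was 76.8% ± 0.579 (SD, n = 6 pools). By pool it was 76.3% and 77.4% in control, 76.0% and 77.3% in early and 77.3% and 76.7% in late. The 6 pools overlapped fully across stages and barcode classes. Few cells lay near the threshold: 142 had exactly 2 member UMIs, 97 exactly 3, and 3093 had 6 or more. The median cell counted held 32 member UMIs, and 8.37% of the counted cells had no mitosis UMI and 1.40% no replication UMI.

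The class was made of 2 clusters. Cluster 5, of 2980 cells, had a thinned share of 84.1%, and its 10 leading genes were all cell cycle genes even though these had been left out of the clustering. Cluster 19, of 893 cells, had the progenitor marker Egfr among its leading genes and had 52.9%. Counting mitosis members alone, the thinned shares were 64.5% in cluster 5 and 31.5% in cluster 19, and counting replication members alone 61.1% and 38.9%. The replication share was thus the higher of the pair in cluster 19 and the lower in cluster 5. Over the 6 pools, cluster 5 held 68.5% to 82.7% of the progenitors.

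Among the replication members of striatal progenitors, Pclaf, which binds PCNA at the replication fork, ranged from 869 to 1129 CPM over the 6 pools. Dut ranged from 657 to 877 CPM, and Rrm2, the small subunit of ribonucleotide reductase, from 323 to 403 CPM. Tyms, thymidylate synthase, ranged from 178 to 258 CPM, Pcna from 199 to 310 CPM and Gmnn from 156 to 192 CPM. The 2 early pools had the lowest Pclaf values, and none of these genes was called between stages. Of the helicase subunits, Mcm5 ranged from 108 to 166 CPM and Mcm6 from 144 to 258 CPM. Ccne2, a cyclin of the entry into replication, was the lowest of the genes followed throughout, at 7.8 to 19.7 CPM.

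Among the mitosis members, Top2a stood at 655 and 1189.9 CPM in the control pools, at 1423 and 1126 CPM in the early pools and at 601 and 1201 CPM in the late pools. The lower control and the lower late value are both of barcode class A. Mki67, the coat protein of mitotic chromosomes, split the same way: the class A pools stood at 191 and 203 CPM and the class B pools at 519 CPM or more. Cdk1 ranged from 252 to 368 CPM and its partner Ccnb1 from 168 to 255 CPM. Cdc20, which activates the ligase that destroys cyclins, ranged from 177 to 227 CPM, and Plk1, a kinase of mitotic entry, from 53.2 to 76.8 CPM. Birc5, survivin of the chromosomal passenger complex, stood at 294 to 397 CPM, with both class A pools above all class B pools. The barcode classes thus differed in both directions, by member, and the stage fits below carry barcode class as a term.

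**Figure D2:**
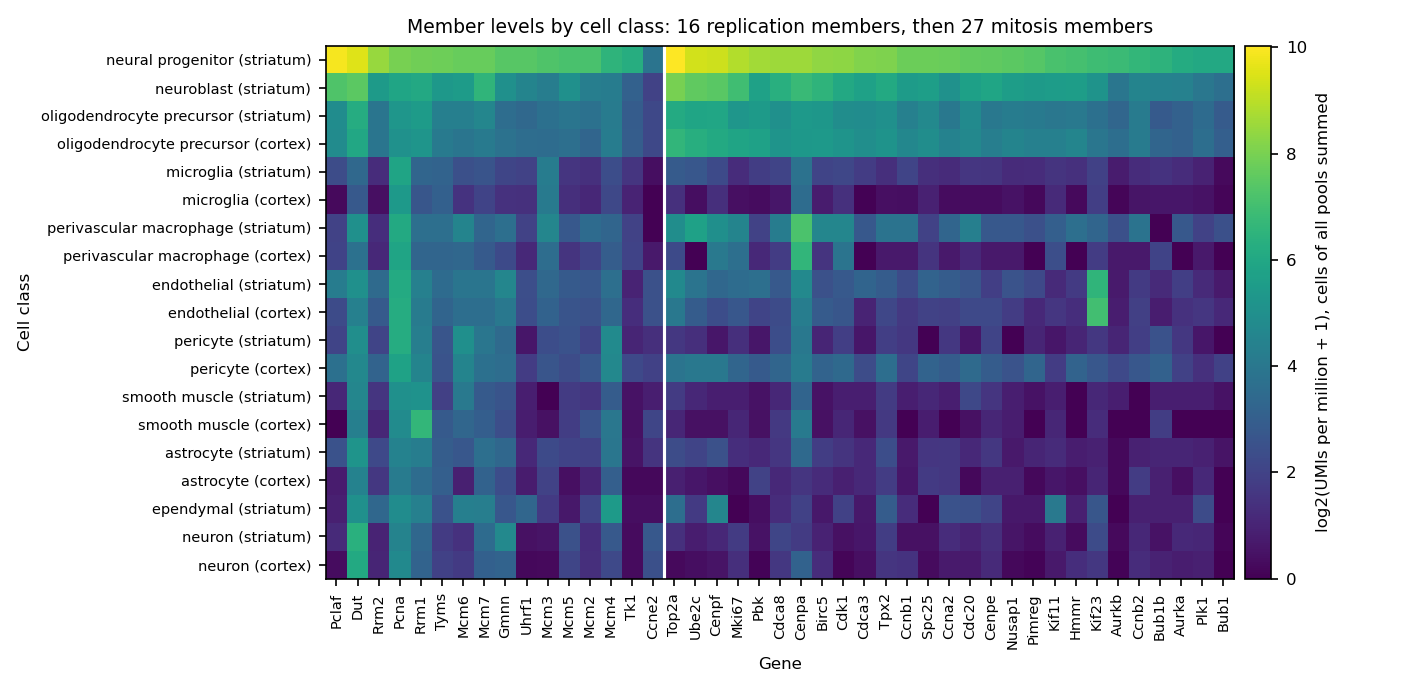
Colour gives log2(CPM + 1) of each member (columns, the 16 replication members left of the white line and the 27 mitosis members right of it) in each cell class of striatum and motor cortex (rows), all pools summed. Progenitors, neuroblasts and oligodendrocyte precursors show the whole set, while neurons, microglia and vascular classes show single members such as Dut, Pcna, Kif23, Cenpa and Rrm1.

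To describe which members were found together within a class, each was compared between cells with 3 or more UMIs of the other 42 members and the remaining cells of that class. In progenitors the median ratio of the CPM was 51.9 over mitosis members and 9.67 over replication members. Plk1, Hmmr, Ccnb1, Bub1 and Aurkb had no UMI in the remaining cells. The smallest ratios were those of Mcm7 (4.82), Mcm2 (5.44), Dut (5.59), Mcm6 (5.71) and Pcna (6.01), which are all replication members. In neuroblasts the medians were 97.9 and 7.83, in striatal oligodendrocyte precursors 151 and 14.6, and in cortical ones 219 and 11.0. In neurons they were 1.26 and 1.04 in striatum and 1.24 and 1.02 in motor cortex. Because the cells were chosen by their other members, these ratios are a description. The members stood higher together in counted progenitors, neuroblasts and oligodendrocyte precursors, and near equal in neurons.

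**Figure D3:**
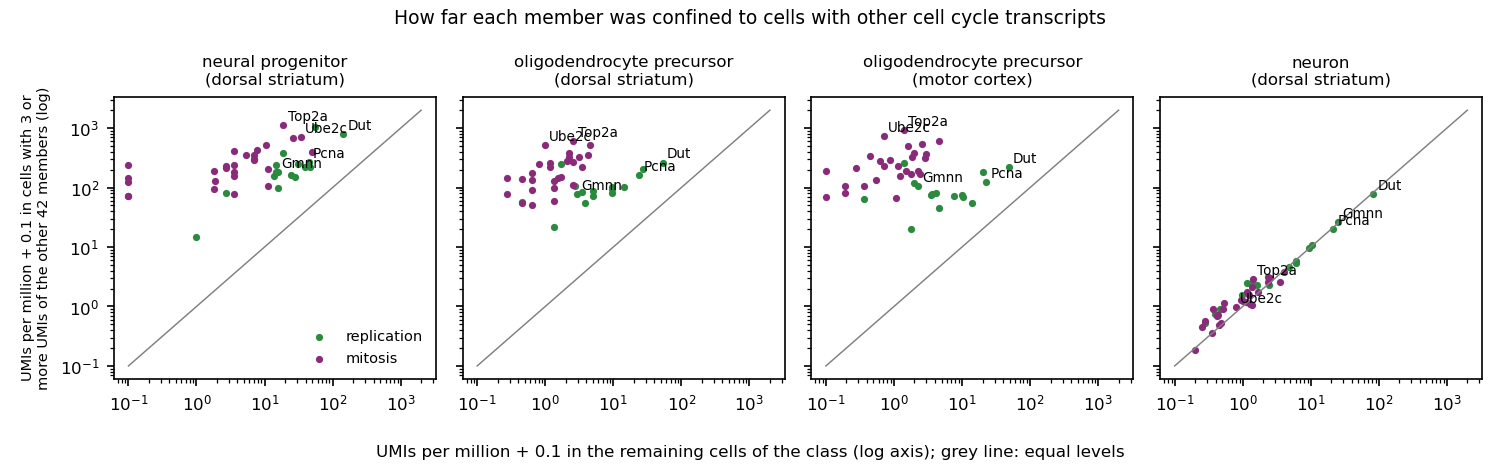
Each point is a member, with its CPM + 0.1 in cells holding 3 or more UMIs of the other 42 members (vertical, log axis) against its CPM + 0.1 in the remaining cells of the class (horizontal, log axis); the grey line marks equal levels. Mitosis members lie far above the line in striatal progenitors and in the oligodendrocyte precursors of both regions, and near it in striatal neurons.

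Striatal neuroblasts, marked by Dcx, Sox11 and Igfbpl1, numbered 5650. Their thinned share was 12.0% ± 4.22 (SD, n = 6 pools), and 16.4% of all their cells had 3 or more member UMIs. The 2 clusters differed: cluster 6, of 2621 cells, had a thinned share of 21.7%, and cluster 4, of 3029 cells, 1.63%. Cluster 6 held 82.3% and 91.7% of the neuroblasts of the class A pools and 26.3% to 46.2% of those of the class B pools, so that the makeup of the class moves with the barcode class. The median counted neuroblast held 11 member UMIs, and 73.4% of the member UMIs of counted cells came from mitosis members against 64.4% in progenitors. Top2a (248.7 CPM), Ube2c (192 CPM), which supplies ubiquitin for the destruction of cyclins, and Dut (181 CPM) had the most UMIs. Mcm7 had the smallest ratio of the members in this class, 1.95, with 76.8 CPM in the neuroblasts that had few other member UMIs.

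Oligodendrocyte precursors, marked by Pdgfra, Cspg4 and Olig2, were found in both regions. Their thinned share was 5.58% ± 3.40 (SD, n = 6 pools) in 2751 striatal cells and 4.86% ± 1.26 (SD, n = 6) in 5697 cortical cells. The striatal pools ran from 2.85% to 11.6% and the cortical pools from 3.36% to 6.73%, so that the regions overlapped. At full depth 234 striatal cells (8.51%) and 421 cortical cells (7.39%) were counted. The median counted cell held 9 member UMIs in striatum and 12 in motor cortex. Cells at the threshold were 179 with exactly 2 and 56 with exactly 3 in striatum.

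The mitosis members were the larger part: 75.6% of the member UMIs in counted striatal precursors and 81.6% in counted cortical ones. Several mitosis members had nearly all their UMIs in cells that held 3 or more UMIs of other members. In cortical precursors this was 248 of 248 UMIs for Pimreg, 286 of 288 for Hmmr, 142 of 143 for Aurkb and 970 of 977 for Ube2c. In striatal precursors it was 100 of 101 UMIs for Pimreg, 365 of 370 for Ube2c, 55 of 56 for Aurkb, 96 of 98 for Hmmr and 175 of 179 for Cdca3. With so few UMIs in the remaining cells, the size of their ratios is not given. The smallest ratios were Dut (4.92 in striatum, 4.61 in motor cortex) and Mcm4 in motor cortex (3.95). The counted precursors kept all 10 precursor markers, at 0.79 times the summed level of the other precursors in striatum and 0.82 times in motor cortex. In striatum the 8 progenitor markers stood at 199 CPM in counted precursors against 158 CPM in the others, with 7 of 8 higher, and the 8 endothelial markers at 77.5 against 39.4 CPM, with 5 of 8 higher. In motor cortex these were 157 against 133 CPM, with 2 of 8 higher, and 26.5 against 31.1 CPM, with 1 of 8 higher. Their part in the share was not tested.

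The next cells of this lineage had few counted cells. Committed oligodendrocyte precursors, marked by Gpr17, Bmp4 and Enpp6, had a thinned share of 0.433% ± 0.541 (SD, n = 6) in striatum and 0.064% ± 0.045 (SD, n = 6) in motor cortex. The striatal value is that of cluster 21, of 607 cells, whose 10 leading genes held 4 markers of mature oligodendrocytes and 3 of committed precursors. Of the 39 counted cells in motor cortex, 29 had no mitosis UMI. Mature oligodendrocytes had 0.093% ± 0.118 and 0.009% ± 0.013 (SD, n = 6 each).

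Levels in precursors were compared between regions over all 12 pools, with stage and barcode class as further terms (edgeR's quasi-likelihood test, Benjamini-Hochberg adjustment). None of 42 members tested was called, against 0.808% of 12258 genes called. Without adjustment, 7 of 42 members had p under 0.05, and 8.88% of all genes did. Top2a stood at 33.9, 50.6, 50.7, 69.1, 109 and 121 CPM in the 6 striatal pools and at 80.5 to 138 CPM in the 6 cortical pools, and its log2 fold change was -0.48 (SE 0.188, adjusted p = 0.399). Mki67 had -0.64 (SE 0.218, adjusted p = 0.258). The replication members Mcm7 (0.57, SE 0.216, adjusted p = 0.363) and Dut (0.36, SE 0.143, adjusted p = 0.416) had the opposite sign. The medians were 0.22 over 15 replication members and -0.16 over 27 mitosis members, and 0.00 over all genes.

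Microglia, the resident macrophages of the brain, had few counted cells. Their thinned share was 0.305% ± 0.271 (SD, n = 6 pools) in 5029 striatal cells and 0.123% ± 0.102 (SD, n = 6) in 10187 cortical cells. The pools of the regions overlapped, and the cortical mean was close to that of cortical neurons. At full depth 60 striatal cells (1.19%) and 55 cortical cells (0.540%) were counted, and 30 of 60 and 25 of 55 had no mitosis UMI. Pcna had the most UMIs, at 31.3 to 72.9 CPM in striatal pools and 35.2 to 49.8 CPM in cortical ones, followed by Mcm3, a helicase subunit, and Cenpa, the centromere histone. In striatum, late pool 1 had the highest thinned share, 0.799%, and control pool 1 the lowest, 0.020%.

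The counted microglia of striatum also held transcripts of other cells. The 8 progenitor markers stood at 278 CPM in them against 54.4 CPM in the remaining microglia, with 8 of 8 higher. The 8 neuroblast markers stood at 1091 CPM against 232 CPM, again with 8 of 8 higher, while the 8 microglia markers were all lower, at 17395 CPM against 21616 CPM. In motor cortex, where no progenitor cluster was found, the progenitor markers of counted microglia stood at 23.8 CPM against 31.6 CPM, with 2 of 8 higher. Whether progenitor RNA or mixed barcodes set the striatal share was not tested. Between regions none of 8 members tested in microglia was called, against 1.01% of 10255 genes. Mcm6 had a log2 fold change of 1.41 (SE 0.450, adjusted p = 0.246) and Pcna 0.39 (SE 0.161, adjusted p = 0.443). With presumed doublets kept, 14 of 22 members tested were called higher in striatal microglia, where 1150 of 11454 genes were called. Leaving out 1 pool called 2 or 3 members of 14 or 15 higher for 9 of the 12 pools, where 0.669% to 1.36% of genes were called. The exceptions were striatal early pool 1, striatal late pool 1 and cortical late pool 1, with 8, 9 and 15 members tested. The fits with calls thus also tested members that the filter of the main fit had left out. The part of the filter in these calls was not tested.

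Among vascular cells, endothelial cells, which line the vessels, had a thinned share of 2.07% ± 2.61 (SD, n = 6 pools) in striatum and 0.865% ± 0.529 (SD, n = 6) in motor cortex. Late pool 1 alone stood at 7.32% in striatum, and the other 5 pools at 0.462% to 1.58%, against 0.131% to 1.56% in the cortical pools. The median counted endothelial cell held only 3 member UMIs in each region. Of the counted cells, 22 of 91 in striatum and 10 of 105 in motor cortex had 6 or more. The neuronal background does not cover Kif23, which stands high in this class without the rest of the list, as given below. In striatum the counted endothelial cells again held more neuroblast markers, 857 CPM against 333 CPM with 8 of 8 higher, and their endothelial markers stood at 0.777 times the level of the rest. Their part in the share was not tested. Pericytes, which wrap capillaries, had 0.924% ± 1.497 and 1.03% ± 1.77 (SD, n = 6 each) in striatum and motor cortex, with 1 high pool each, striatal late pool 1 at 3.95% and cortical early pool 2 at 4.54%. Smooth muscle cells had 0.133% ± 0.186 and 0.605% ± 0.303 (SD, n = 6 each). Fibroblasts were at background, with thinned shares of 0.028% over 275 striatal and 0.024% over 301 cortical cells.

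Some members stood high in single classes without the rest of the list. Kif23, a kinesin of cytokinesis, had the most UMIs of all members in endothelial cells. It stood at 43.5 to 130.3 CPM in the 6 striatal pools and at 82.5 to 181 CPM in the 6 cortical ones, which overlapped. Endothelial cells that held 3 or more UMIs of the other members had less Kif23 than the rest, 86.9 CPM against 93.4 CPM in striatum and 100.2 CPM against 127 CPM in motor cortex. In perivascular macrophages, which line vessels inside the brain, Cenpa was the leading member, at 62.7 to 226 CPM in striatal pools and 66.6 to 141 CPM in cortical ones. Mcm4, a helicase subunit, led in striatal ependymal cells, which line the ventricles, at 13.7 to 60.4 CPM. Rrm1, the large subunit of ribonucleotide reductase, stood at 97.9 CPM in cortical smooth muscle cells, where Pcna followed at 27.6 CPM, and at 34.0 CPM in striatal ones, close to Pcna at 32.1 CPM. The full-depth shares of endothelial (6.24%), ependymal (12.7%) and perivascular macrophage cells (7.80%) in striatum stood above their thinned means of 2.07%, 0.666% and 2.38%.

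A small leukocyte class was found in motor cortex. The 103 T or NK cells had a thinned share of 11.1% ± 10.0 (SD, n = 6 pools, with 5 to 34 cells per pool), and pools ran from 0% to 26.5%. For control pool 1, with 0 of 5 cells counted, the limit is 60.0%, so that this spread cannot be read. Cenpa, Top2a and Mcm6 led, at 138, 83.5 and 68.8 CPM. Astrocytes had 0.505% ± 0.841 and 0.554% ± 1.05 (SD, n = 6 each) in striatum and motor cortex, and each mean rested on 1 pool, striatal late pool 1 at 2.22% and cortical early pool 2 at 2.62%.

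Over the 8 classes that could be compared between regions, 2 of 74 member tests were called, and 4.74% of the 58652 gene tests were. One was Rrm1 in smooth muscle cells, the contractile cells of vessel walls. It stood at 22.6, 13.2, 38.3, 33.9, 39.8 and 49.5 CPM in the striatal pools (control, early and late in turn) and at 55.6, 69.5, 136.8, 59.7, 78.5 and 121 CPM in the cortical pools. Every striatal pool was below every cortical pool. The log2 fold change, striatum minus motor cortex, was -1.43 (SE 0.217, adjusted p = 8.85e-04, edgeR's quasi-likelihood test), where 0.882% of 6462 genes of the class were called. In the batches that hold both regions, the pairs were 33.9 against 59.7 CPM (early pool 2) and 49.5 against 121 CPM (late pool 2). Under a strict cell filter, of at least 2000 UMIs and 1000 genes and at most 10% mitochondrial UMIs per cell, smooth muscle held too few cells to be fitted.

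The other called member was Dut in astrocytes. It stood at 47.8, 26.1, 23.7, 29.8, 85.01 and 32.6 CPM in the striatal pools and at 16.3, 12.3, 11.5, 32.6, 27.6 and 12.98 CPM in the cortical pools, which overlapped. The log2 fold change was 1.08 (SE 0.242, adjusted p = 0.00376, edgeR), in a class where 21.4% of 10230 genes were called. In the batches that hold both regions the pairs lay in opposite directions, at 29.8 CPM in striatum against 32.6 CPM in motor cortex (early pool 2) and at 32.6 against 12.98 CPM (late pool 2). Without barcode class as a term the adjusted p was 0.0636. The highest value was that of striatal late pool 1, whose astrocytes carried 6880 CPM of spiny projection neuron markers against 385 to 1562 CPM in the other 5 striatal pools, and 7396 CPM of astrocyte markers against 14014 to 19756 CPM. Without that pool the log2 fold change was 0.95 (adjusted p = 0.0083), and under the strict cell filter it was 1.46 (adjusted p = 0.00285).

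Training was compared within each region, early and late against control. In sums over cells, fewer cells with these transcripts and less RNA in each cannot be told apart. The p-values measure only the spread between pools, 2 per stage, after barcode class. Both early pools were of class B, so the early contrasts rest on control levels brought to class B. The class difference used for this comes from the control and late pools, so late pool 1 enters the early values too. Over the 13 striatal classes 1 of 206 member tests was called early against control, where 0.0252% of 114901 gene tests were, and 2 of 206 late against control, where 0.0339% were. None of 206 was called late against early (0.0113% of gene tests), and 7 had an unadjusted p under 0.05, where 5.93% of gene tests did. Over the 9 cortical classes none of 71 was called in any of these comparisons, where 0.0201%, 0.0727% and 0.00774% of 64641 gene tests were, and 11, 7 and 4 of 71 had an unadjusted p under 0.05, where 3.34%, 3.78% and 2.98% of gene tests did. All the called members were in striatal oligodendrocyte precursors.

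In these precursors Pclaf, the PCNA-binding factor, had 14 and 4 UMIs in the control pools, 27 and 25 in the early pools and 59 and 50 in the late pools. That is 18.1 and 4.52 CPM in control, 27.7 and 19.5 CPM in early and 102 and 27.6 CPM in late. Both trained groups stood above both control pools. The mean CPM was 11.3 in control and 23.6 in early pools. The early change fitted with barcode class, 4.77-fold, is larger than that of these means. The log2 fold change was 2.25 early (SE 0.444, adjusted p = 0.0318) and 2.52 late (SE 0.350, adjusted p = 1.8e-04), by edgeR's quasi-likelihood test with Benjamini-Hochberg adjustment over 10885 genes, of which 0.0827% and 0.184% were called. Within batches Pclaf stood at 27.7 CPM in early pool 1 against 4.52 CPM in control pool 2, and at 102 CPM in late pool 1 against 18.1 CPM in control pool 1.

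Pbk, a kinase of mitosis, stood at 55.7 and 14.7 CPM in control, at 44.1 and 24.97 CPM in early and at 159 and 26.5 CPM in late precursors of the striatum. The late pools overlapped the control pools, and the class A pools were the higher ones in both. Late against control the log2 fold change was 1.31 (SE 0.285, adjusted p = 0.0413, edgeR). Without late pool 1 or without control pool 1 the log2 fold change of Pbk fell to 0.86. Both fits then compare late pool 2 with control pool 2, because the barcode class term takes up the class A pool that is left. The log2 fold change of Pclaf was 2.60 late without late pool 1, and 2.01 early without early pool 1. Each of these fits leaves a single pool in a stage, so no p-value is given.

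Most other members lay on the same side in striatal precursors. Of 38 tested, 29 early and 24 late had an unadjusted p under 0.05, all higher, where 3.09% and 4.13% of all genes did so on that side. The median log2 fold change was 1.45 early and 1.09 late, against -0.01 and 0.00 over all genes tested. Mitosis members had medians of 1.64 and 1.19 and replication members 1.05 and 0.60. Top2a had 1.26 early (SE 0.312, adjusted p = 0.116) and 1.15 late (SE 0.276, adjusted p = 0.0904), and Mki67 1.41 early (SE 0.372, adjusted p = 0.160) and 1.04 late (SE 0.344, adjusted p = 0.358). Pcna had 0.20 and 0.13 (adjusted p = 0.97 for both). The 2 early pools were both above both controls for 18 of 38 members, and the late pools for 14, where 24.3% and 8.29% of 10885 genes had such levels.

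**Figure D4:**
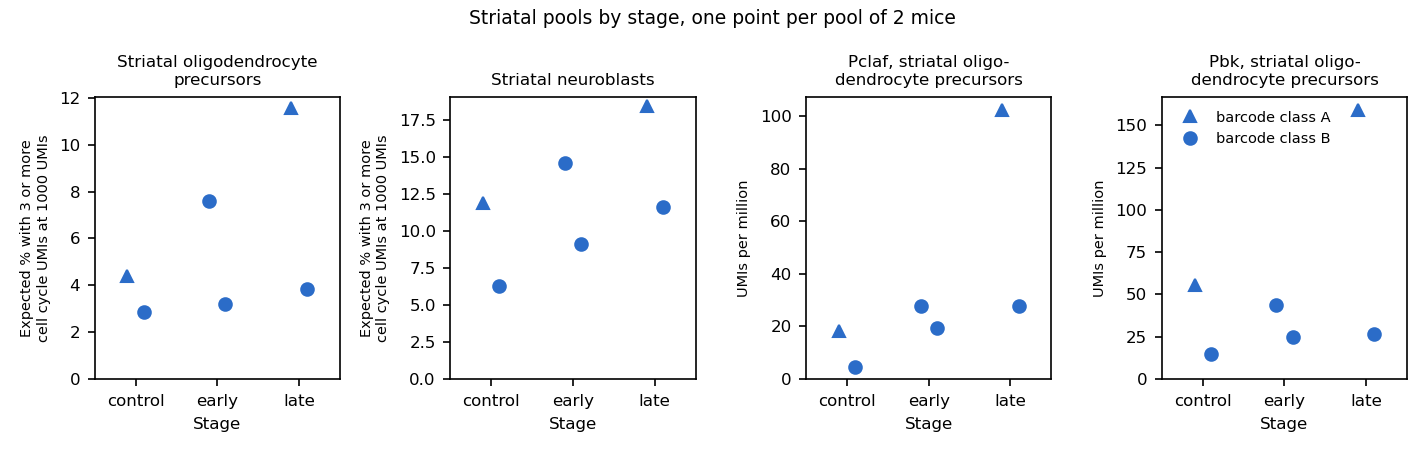
Striatal pools by stage, 1 point per pool of 2 mice (triangles, barcode class A; circles, class B): the thinned percent of cells with 3 or more member UMIs in oligodendrocyte precursors and in neuroblasts, and the CPM of Pclaf and Pbk in oligodendrocyte precursors. Late pool 1 is the highest point in all 4 panels, and for Pclaf the 4 trained pools stand above both control pools.

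The shares of the precursors overlapped by stage, with thinned values of 4.41% and 2.85% in control, 7.60% and 3.19% in early and 11.6% and 3.84% in late pools. At full depth they were 5.66% and 9.47%, 12.6% and 7.03%, and 13.6% and 6.22%, so that control pool 2, whose precursors had a median of 3045 UMIs, stood above pool 2 of both trained groups. Within batches, 43 of 43 members had a higher CPM in early pool 1 than in control pool 2, and 40 of 43 in late pool 1 than in control pool 1, where 50.9% and 52.1% of the genes with a UMI in either pool did. The same pairs differed in classes with few counted cells. In microglia 36 of 43 members were higher in early pool 1 and 37 in late pool 1, and in endothelial cells 35 and 40. Of all genes, 61.2% and 63.4% were higher in those pairs in microglia and 64.0% and 64.8% in endothelial cells. Pclaf in microglia stood at 0.89 and 0.49 CPM in control, 6.24 and 1.09 CPM in early and 18.4 and 3.08 CPM in late pools. What these other classes share with the precursors, free RNA included, was not tested.

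Several settings ended these calls. Without barcode class as a term 4 and 6 of 38 members had an unadjusted p under 0.05, where 2.8% and 0.735% of all genes did. None was called, where 0% of genes were, with Pclaf at 0.99 early (adjusted p = 0.84) and 2.47 late. Under DESeq2 none was called, where again 0% of genes were, with Pclaf at 2.55 late (adjusted p = 0.209). The early Pclaf call was also lost with cycle genes kept in clustering (adjusted p = 0.0821) and under the strict cell filter (0.0835). Beside barcode class, the replicate number as a block takes up early pool 1 and leaves a single early pool. It is thus not separate from the fit without early pool 1. The late Pbk call was lost under DESeq2, without barcode class, with doublets kept, with cycle genes kept in clustering (adjusted p = 0.105) and under the strict filter (0.280). With presumed doublets kept none of 42 was called, where 0.00866% and 0% of genes were. There 7 and 19 of 42 had an unadjusted p under 0.05, where 5.42% and 6.37% of genes did, and Pclaf had 0.66 and 0.98. The early median of 1.45 was 0.53 with presumed doublets kept, 0.65 without barcode class and 0.90 without early pool 1 or with the replicate number as a block, and the late median of 1.09 was 0.69 with doublets kept, without control pool 1 or without late pool 1. The count of members at an unadjusted p under 0.05 fell early without early pool 1, and late without late pool 1 or control pool 1. The count of members called went up or down with the pool left out. Each of these fits leaves a single pool in a stage, so their counts in this class are not given. Without late pool 1 or control pool 1 the late contrast is late pool 2 against control pool 2. Without control pool 2 or late pool 2 it is late pool 1 against control pool 1.

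In striatal neuroblasts no member of 42 was called early or late against control in the fit with barcode class, where 0.087% and 0.0696% of 11497 genes were. Without adjustment 26 and 24 of 42 had a p under 0.05, all higher, where 2.55% and 3.47% of genes did. The medians were 0.77 early and 0.65 late. Mki67 had 1.15 early (SE 0.237, adjusted p = 0.0985) and Cdc20 1.23 late (SE 0.262, adjusted p = 0.119). Cdc20 stood at 24.9 and 31.7 CPM in control, at 75.7 and 42.2 CPM in early and at 80.5 and 62.3 CPM in late pools. The 4 trained pools were thus above both controls. For neuroblasts the share of all genes with that order was not computed. Top2a stood at 85.5 and 165 CPM in control, 487 and 225 CPM in early and 118 and 302 CPM in late pools. Without early pool 1 the early count fell. With no term for barcode class the counts were 10 and 5 of 42. Of all genes, 1.47% and 0.661% then had such a p in either direction. With cycle genes kept in clustering the counts were 3 and 5 of 25, where 4.64% and 7.84% of genes did, with medians of 0.30 and 0.39. With the replicate number as a block the early median was 0.40. That block takes up early pool 1 and leaves a single early pool, so counts under it are not given. The count of members called varied with the pool left out. Those fits leave a single pool in a stage, so their counts in this class are not given. When a control or late pool is left out, the late contrast again rests on a single pool of each stage. The thinned shares were 11.9% and 6.31% in control, 14.6% and 9.17% in early and 18.4% and 11.7% in late pools, which overlapped.

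Striatal progenitors, which hold most member UMIs, showed no such shift. None of 43 members was called in either comparison, where 0.0083% of 12044 genes were, and 2 early and 2 late had an unadjusted p under 0.05, against 5.39% and 6.29% of genes. The medians were -0.08 and -0.03. The member nearest to a call was Ccne2, the cyclin of replication entry, with 0.92 early (SE 0.295, adjusted p = 0.700).

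In cortical oligodendrocyte precursors none of 43 members was called early or late, where 0% of 12909 genes were. Without adjustment 7 early and 7 late had a p under 0.05, all higher, where 2.87% and 2.72% of genes did, and the medians were 0.37 and 0.26. Ccnb1 stood at 2.2 and 12.9 CPM in control, 22.5 and 47.8 CPM in early and 23.2 and 16.5 CPM in late pools, all trained pools above both controls, with 1.78 early (SE 0.485, adjusted p = 0.986). Its level in control pool 1 rests on 1 UMI in the right hemisphere and 0 in the left. The share of all genes with such an order of pools was not computed for this class. The early count of 7 fell without early pool 2, where the median was 0.02. The late count of 7 fell without control pool 1 or without late pool 1. It was 1 of 43 with cycle genes kept in clustering, where 3.75% of genes had such a p in either direction. Fits with a pool left out leave a single pool in a stage, so their counts in this class are not given. Pclaf stood at 31.4 and 17.1 CPM in control, 12.9 and 21.9 CPM in early and 54.3 and 23.8 CPM in late pools, which overlapped. The thinned shares were 6.73% and 4.46% in control, 3.36% and 4.79% in early and 5.93% and 3.92% in late pools. Within batches 20 of 43 members were higher in early pool 1 than in control pool 2 and 29 of 43 in late pool 1 than in control pool 1, where 46.7% and 53.6% of genes were.

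Whether precursors changed differently in the regions was tested over all 12 pools, a test added after the data were seen. None of 12650 genes was called (edgeR), and 3 and 7 of 42 members had an unadjusted p under 0.05 for the early and late change, where 6.5% and 3.83% of genes did. For all of these members the change was higher in striatum. The median difference was 0.39 and 0.72 over members, against -0.01 and -0.03 over all genes. The change of Pclaf was 1.70 larger on the log2 scale in striatum early (SE 0.546, adjusted p = 0.759). A difference between regions in the change with training was therefore not called for any gene with these pools.

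**Figure D5:**
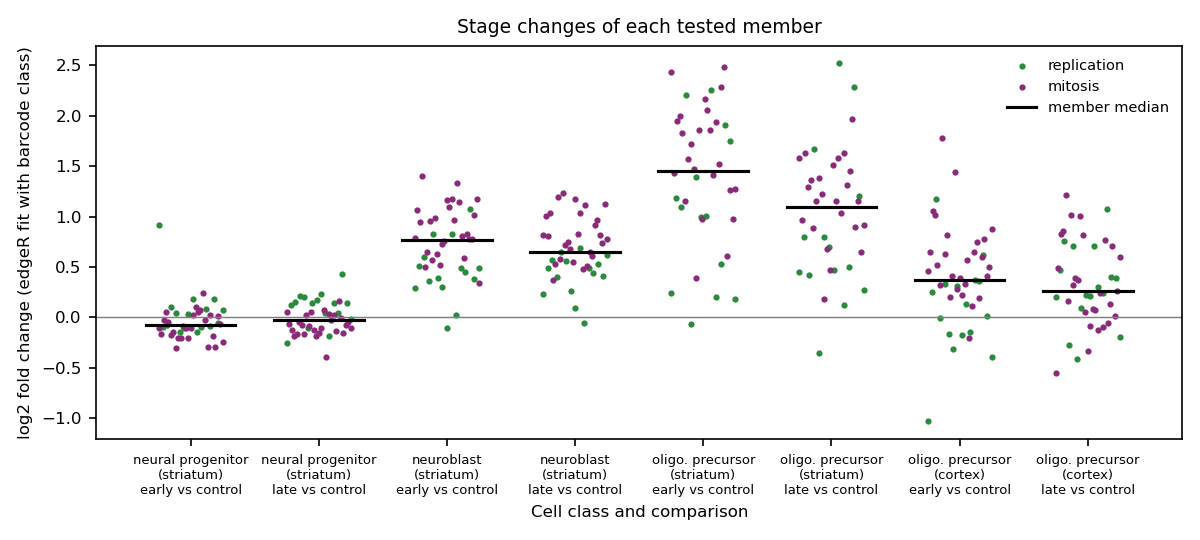
Log2 fold change of each tested member (points, replication in green and mitosis in purple; vertical axis), early or late against control, in 4 cell class and region pairs (horizontal axis), from the edgeR fit with barcode class; black lines mark the median over members. The medians are 1.45 and 1.09 in striatal oligodendrocyte precursors (0.53 and 0.69 with presumed doublets kept), 0.77 and 0.65 in striatal neuroblasts, -0.08 and -0.03 in striatal progenitors and 0.37 and 0.26 in cortical oligodendrocyte precursors.

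Hemispheres were compared in the 4 trained pools of each region, contralateral against ipsilateral, with the pool as a block. In striatum none of 180 member tests over 9 classes was called, where 0.016% of gene tests were, and 13 had an unadjusted p under 0.05, where 3.56% of gene tests did. In motor cortex 1 of 66 was called, where 0.0545% of gene tests were: Top2a in oligodendrocyte precursors. Contralateral and ipsilateral values were 146 and 52.0 CPM in early pool 1, 138 and 139 CPM in early pool 2, 86.4 and 77.6 CPM in late pool 1 and 94.1 and 93.7 CPM in late pool 2. The hemispheres differed in early pool 1 and were close in the other 3 pools. The log2 fold change was 0.45 (SE 0.103, adjusted p = 0.0173, edgeR), where 0.0755% of 11917 genes were called. Without early pool 1 it was 0.08 (adjusted p = 0.998), and under DESeq2 0.43 (adjusted p = 1).

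Other cell cycle genes were read from 3 lists of 43 replication, 80 mitosis and 25 entry and arrest genes. In striatal precursors 23 and 27 of 53 mitosis genes tested had an unadjusted p under 0.05 and a higher level early and late, and 13 and 11 of 26 replication genes did, where 3.09% and 4.13% of all genes did. None of either list was lower at that p. In neuroblasts it was 46 and 30 of 78 mitosis genes and 5 and 5 of 42 replication genes, where 2.55% and 3.47% of all genes did. In progenitors 2 and 4 of 80 mitosis genes had such a p in either direction, where 5.39% and 6.29% of all genes did. Of 225 tests of entry and arrest genes over the striatal classes, 10 were higher and 11 lower at that p early and 11 higher and 9 lower late, where 5.15% and 6.13% of all striatal gene tests had such a p in either direction. Called genes were Esco2, which ties sister chromatids together, and Cdkn2c, an inhibitor of the kinases of cycle entry. Esco2 stood at 3.88 and 3.39 CPM in control, 14.3 and 14.04 CPM in early and 32.9 and 14.4 CPM in late precursors of the striatum, with all trained pools above the controls (late 2.59, SE 0.558, adjusted p = 0.0387). This call was lost under DESeq2, without barcode class and under the strict cell filter (adjusted p = 0.263). It was also lost with doublets kept (1.10, adjusted p = 0.704) and with cycle genes kept in clustering (adjusted p = 0.105). Leaving out late pool 1, control pool 1 or early pool 2 ended it too. Esco2 was also called in early striatal neuroblasts, at 1.79 (SE 0.301, adjusted p = 0.0247). That call was lost under DESeq2 (adjusted p = 0.749), without barcode class (0.951), with doublets kept (0.0661), and without control pool 2 or early pool 1. Cdkn2c was called in early striatal precursors, at 1.87 (SE 0.362, adjusted p = 0.0294), although it stood at 66.1 and 15.8 CPM in control and 48.2 and 33.5 CPM in early pools, which overlapped. Without barcode class its log2 fold change was -0.09 (adjusted p = 0.986). The call was also lost under DESeq2, under the strict filter (adjusted p = 0.251) and with doublets kept (0.825). Leaving out early pool 1, late pool 1, control pool 1 or late pool 2 ended it too.

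Between regions 17 of 396 list tests were called (4.29%), which is near the 4.74% of all gene tests. In astrocytes 13 of 52 were, in a class where 21.4% of all genes were called. The D-type cyclins, which open the cycle, went in opposite directions there: Ccnd1 stood at 3.8 to 16.9 CPM in striatal and 16.4 to 121 CPM in cortical astrocytes (-2.12, SE 0.412, adjusted p = 0.0013), and Ccnd2 at 154 to 440 against 117 to 199 CPM (0.60, SE 0.176, adjusted p = 0.0208). Ccnd2 was also called higher in striatal endothelial cells (0.95, SE 0.183, adjusted p = 0.0118) and oligodendrocyte precursors (0.80, SE 0.160, adjusted p = 0.0108). Without barcode class the adjusted p of Ccnd2 was 0.0989 in astrocytes and 0.414 in endothelial cells, and under the strict filter it was 0.110, 0.0675 and 0.0669 in the 3 classes, so that each call was lost, as it was in precursors without barcode class and with cycle genes kept in clustering (0.49, adjusted p = 0.230). Leaving out a single pool raised it to as much as 0.0735 in astrocytes, 0.0712 in endothelial cells and 0.118 in precursors. The pools that ended the call were cortical early pool 1, both cortical late pools, striatal early pool 2 and striatal late pool 2 in astrocytes, cortical early pool 1, cortical late pool 1 and striatal early pool 1 in endothelial cells, and cortical late pool 1 in precursors. The 8 neuroblast markers summed to 201 to 959.7 CPM in striatal and 106 to 169.7 CPM in cortical astrocytes, to 214 to 1134 and 156 to 303 CPM in endothelial cells and to 671 to 798 and 626 to 827 CPM in precursors. The 8 progenitor markers summed to 180.4 to 206 and 119 to 168.8 CPM in astrocytes, 261 to 468 and 165 to 564 CPM in endothelial cells and 139 to 209.99 and 125 to 141 CPM in precursors. The part of these levels in the Ccnd2 calls was not tested. The Ccnd1 call and those of Cdkn1a below were kept under every alternative run, of which the strict filter left too few perivascular macrophages to be fitted. Cdkn1a, the arrest factor p21, was called lower in striatal astrocytes (-1.86, SE 0.232, adjusted p = 2e-05) and perivascular macrophages. In the latter it stood at 243 to 529 CPM in striatum and 609 to 982 CPM in motor cortex, without overlap (-0.89, SE 0.179, adjusted p = 0.0040).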

How the data were processed

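Single-cell 3′ RNA libraries (10x Genomics) were made from pooled motor cortex and dorsal striatum. The deposited matrices hold UMI counts per gene and barcode, which the authors made with Cell Ranger 3.1.0 on GRCm38 (mm10), per the submitters' processing notes; the matrix headers give software version 3.0.2. The kit of each library is not given in the sources used here.

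Barcodes with at least 500 genes, at least 1000 UMIs and at most 20% mitochondrial UMIs were kept, and presumed doublets (Scrublet, 0.8% per 1000 barcodes) were removed. Cells were clustered per region with scanpy 1.11.5 (2000 variable genes without cell cycle genes, 40 components, 20 neighbours, Leiden resolution 1.5). A cluster was named where at least 3 markers of a class were detected in 20% of its cells at 2 times the level elsewhere and the next class of another lineage scored under 0.5 of it. Among their 10 leading genes the striatal cluster of committed precursors and 4 clusters of neurons held more markers of another class than of their own. These neurons were used only within all neurons. Counts were summed per pool and class, with at least 20 cells in every pool, and tested with edgeR 4.0.16 (quasi-likelihood, TMM factors, filterByExpr, Benjamini-Hochberg adjustment over all genes of a fit, threshold 0.05). Stage fits carry barcode class and leave 2 residual degrees of freedom. Region fits carry stage and barcode class, and hemisphere fits the pool. The fit was tested on simulated data. Shares of cells are descriptions, and intervals and limits of a count of 0 (3 counts) cover counting error only.

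Alternatives were RLE factors, no filter, DESeq2 1.42.0, no barcode class term, the replicate number as a block, stricter cell filters, doublets kept, cycle genes kept in clustering, other thresholds and depths, and each pool left out. A stage fit with a pool left out leaves a single pool in a stage, so its values are descriptions. The replicate number as a block takes up early pool 1, so the same holds for that fit. The members and lists were chosen with earlier results of these data known. Named are the members called in any fit, 15 members followed throughout, the 3 with most UMIs in a class, the 5 largest and 5 smallest ratios within a class, and list genes called. Other genes were named after their values were seen.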

Additional observations from a re-analysis of the deposited data

Results flagged for a closer look

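Barcodes removed as presumed doublets were outside the comparisons. Of these 5103 barcodes 19.4% had 3 or more cell cycle UMIs, against 12.9% of the 98612 cells kept. No group held 4 or more pools, so that single pools were not tested as outliers.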

How the results depend on the processing

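The value printed second in each pair below is that of the setting named, and the cause of a change was not tested. The share of all genes called moves with the setting too, so a count of members alone does not single them out. Between regions in microglia that share was 1.01%, against 10% with doublets kept and 1.85% with no filter. In striatal precursors, late against control, it was 0.184%, against 0.336% with no filter. It was 0% there with DESeq2, doublets kept or no barcode class term. Shares over all classes are not given for these settings, so the counts below are not results about the members. Counts of members called: region comparison 2, against 25 with doublets kept, 27 with no filter, 1 with no barcode class term and 1 with the strict cell filter; striatum early 1, against 25 with no filter and 0 with DESeq2, cycle genes kept, doublets kept, no barcode class term, the replicate block or the strict filter; striatum late 2, against 20 with no filter, 14 with the replicate block, 1 with cycle genes kept and 0 with DESeq2, doublets kept or no barcode class term; cortex early 0, against 5 with no filter and 15 with the replicate block; cortex late against early 0, against 2 with the block; cortex hemisphere 1, against 0 with DESeq2, no filter or no replicate block. Of other cell cycle genes, 17 were called between regions, against 41 (doublets kept), 32 (no filter), 8 (no barcode class term) and 6 (strict). In striatal stages it was 3, against 26 (no filter), 1 (cycle genes kept) and 0 (DESeq2, doublets kept, no barcode class term). In cortical stages it was 0, against 1 (doublets kept) and 3 (no filter). Pool numbers follow accession order. Deviations of same-numbered pools correlated at 0.51 to 0.64 between control and late and at -0.17 to 0.08 between control and early. Between early and late they correlated at 0.00 to 0.21, so the numbers do not pair the pools by the rule used. A stage fit with a pool left out keeps a single pool in a stage. The stage ranges that follow, over all classes and without the share of all genes called, thus cannot show whether a stage change holds. With 1 pool left out, members called ranged from 2 to 7 (region), 0 to 21 (striatum early), 8 to 21 (striatum late), 0 to 1 (striatum late against early), 0 to 5, 0 and 0 to 2 (the same comparisons in cortex), 0 to 1 (cortex hemisphere) and 0 to 2 (striatum hemisphere), and other genes called from 11 to 22, 0 to 10 (cortical stages), 2 to 54 (striatal stages) and 0 to 1 (hemispheres).

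Mean shares at 3 or more UMIs were, for progenitors, 87.7% (83.4% at 5 or more, 76.8% at 1000 UMIs, 69.9% mitosis members only, 80.8% replication only, 92.6% strict, 91.0% cycle genes kept; 86.9% to 88.6% with 1 pool out). For neuroblasts 17.2% (26.1% at 2 or more, 12.6%, 12.0%, 39.8% at 2000 UMIs, 9.60%, 13.1%, 43.8%, 11.0%, and 16.2% to 18.2% with 1 pool out). Values at 2000 UMIs, here and for the classes below, can cover only cells with at least 2000 UMIs. They are not shares of the same cells as the first value. For striatal precursors 9.09% (15.9% at 2 or more, 5.58% at 1000 and 18.6% at 2000 UMIs, 4.64% mitosis only, 21.7% strict; 8.20% to 9.78%) and cortical ones 7.49% (12.6%, 5.24% at 5 or more, 4.86%, 11.2%, 4.41%, 5.15% replication only, 14.3%; 7.17% to 7.86%). For striatal microglia 1.15% (5.22%, 0.270%, 0.305%, 2.92%, 0.218%, 5.12% strict, 2.38% doublets kept; 0.997% to 1.35%) and cortical ones 0.622% (3.25%, 1.33% strict; 0.427% to 0.709%). For striatal endothelial cells 6.17% (15.6%, 2.10%, 2.07% at 1000 UMIs, 2.42% mitosis, 2.65% replication, 13.6% strict; 5.28% to 6.76%) and cortical ones 4.58% (15.1%, 0.678%, 0.865%, 1.29%, 1.77%, 12.8%; 3.96% to 5.07%).

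Over single genes and the shares of further classes, 22 alternatives lost a gene's call, 21 moved a share by more than its SD over pools and 148 did neither. This tally does not cover every list gene named above: Cdkn2c went from 1.87 to -0.09 without barcode class. On simulated striatal precursors, late against control, over 10554 genes, the fit recovered 44.9% of 2-fold and 90.7% of 4-fold changes with 1 false call. Smaller changes can thus be missed in this fit. In the simulated region fit and cortical hemisphere fit of precursors, 90% and 95% of 2-fold changes were recovered, with 9 false calls each. The simulated counts held no difference between barcode classes, and changes were planted only in genes above a set mean count. Pclaf rested on as few as 4 UMIs in a control pool.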

Other observations

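Genes outside the members and lists that stood highest in cells with 3 or more member UMIs, in the pool where the ratio was smallest, are given for the classes named. Mns1, known from sperm tails and cilia, stood at 160 CPM in counted cortical oligodendrocyte precursors against 4.38 CPM in the others, at 139 against 7.67 CPM in striatal precursors and at 130 against 11.3 CPM in striatal progenitors. Stmn1, which destabilises microtubules, stood at 1121 against 103 CPM in cortical and 1038 against 94.0 CPM in striatal precursors. Tuba1b, an alpha tubulin, was 6.24 and 6.27 times higher in these classes and 4.16 times in progenitors. In cortical precursors Plk4, the kinase of centriole duplication, was 17.8 times higher and Wee1, the kinase that holds Cdk1 inactive, 16.9 times. The long noncoding RNA Lockd was 44.9 times higher in counted striatal precursors and 6.88 times in counted neuroblasts. Ezh2, which methylates histone H3, was 4.48 times higher in counted progenitors and 3.47 times in counted striatal precursors. These ratios have no test.

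Motor cortex had 1 small neuroblast cluster of 174 cells, of which 15 had 3 or more member UMIs (8.62%). Early pool 2 held 8 of these 15, among 26 cells, with a thinned share of 24.8%. The late pools had none among 42 and 14 cells, which allows shares of up to 7.14% and 21.4%.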
